A study of Homo sapiens with 2 samples.

Results

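The genes described here encode the constitutive proteasome: the 20S core subunits PSMA1 to PSMA7 and PSMB1 to PSMB7, the regulatory ATPases PSMC1 to PSMC6, and PSMD1 to PSMD14. They were taken by gene symbol, without use of any measured value. The rule names 34 genes, and 30 of them had a value among the 12931 genes measured. All 30 differed little between the arrays on the brightest probe set (group of array probes) of each gene. On it none was at least 25% higher or at least 20% lower in siSHISA2 cells than in siCONTROL cells. Their median log2 ratio (siSHISA2 over siCONTROL) was 0.058. Dimmer probe sets of PSMA3 and PSMD11 were at least 20% lower in siSHISA2 cells. These bounds, the same fold in either direction, are called the size threshold below and are not a test. Of all measured genes 25.1% lay past them. The values below give each subunit, the comparison of core, ATPases and lid, and the genes that assemble and regulate the complex.

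Transcripts were measured on 2 oligonucleotide arrays. One carried RNA of PC-3 cells that had received a shRNA expression vector directed at SHISA2 (siSHISA2), and the other RNA of PC-3 cells with a control vector (siCONTROL). PC-3 is an established human prostate cancer line, and both groups are that line. Each group is 1 array, so no difference was tested against variation between cultures and no p-value is given. Neither the number of cultures nor the time between transfection and harvest is given in the sources used here.

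The proteasome is the protease that degrades most short-lived and misfolded proteins of the cytosol and nucleus once they carry ubiquitin chains. Its 20S core is a barrel of alpha and beta rings with the active sites inside. The 19S regulatory particle caps the barrel: a ring of ATPases in its base unfolds the substrate and opens the gate, and its lid removes the ubiquitin. The subunits are built in fixed proportion. When the proteasome is inhibited, the transcription factor NRF1 (NFE2L1) is known to raise most subunit genes together. The complex is the target of the cancer drug bortezomib.

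The targeted gene SHISA2 had a signal of 1506 in the siSHISA2 array and 3536 in the siCONTROL array, a log2 ratio of -1.23. The epithelial keratin KRT18 was bright in both arrays, at 17533 in siSHISA2 and 18339.7 in siCONTROL cells, and 3 of 5 epithelial markers were measured, while KRT19 and CDH1 were not above the floor of 47.9. Of other cell types 1 of 4 leukocyte, 2 of 3 endothelial and 2 of 4 fibroblast markers were above the floor in either array. PTPRC, VWF and COL1A2 were not, and no marker of those types had a signal above 787.2. Past the size threshold were CDH5 (261.5 in siSHISA2, 155.9 in siCONTROL) and COL1A1 (577.0 in siSHISA2, 787.2 in siCONTROL). The other probe sets of COL1A1 went the opposite way (0.18 and 0.92 on the log2 ratio). The part of these markers in the subunit values was not tested. As a technical yardstick, the log2 ratios of 2 probe sets of the same gene had an SD of 0.15 (their difference divided by the square root of 2, over 2826 genes with signals above 387.3). For 1028 genes with both probe sets at least as bright as the dimmest subunit it was 0.11. It says nothing of how cultures or hybridisations vary.

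The promoters of 29 of the 34 genes were available from RefSeq (GRCh38.p14), and the 250 bases before each gene start were searched on both strands. The sequence TGACNNNGC, the core of the antioxidant response element that NRF1 and its relative NRF2 bind, was present in 7 of the 29 genes (24.1%), against 13.2% of the 27305 genes with a promoter in the table and 10.9% of the 35116 promoters. Among measured genes with a promoter it was present in 24.0% of the 25 subunit genes, against 16.0% of all 10480. Of the 3549 at least as bright as the dimmest subunit, called equally bright below, 16.5% held it. The sites are shown because they mark the subunit genes with a match to this core. Capitals mark the match, which in the first PSMD9 site and in PSMC5 lies on the opposite strand and so reads in reverse complement. A match is a description of the sequence and not evidence of binding.
PSMA4 (chr15:78540650-78540678, plus strand): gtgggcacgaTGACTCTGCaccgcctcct
PSMB3 (chr17:38752627-38752655, plus strand): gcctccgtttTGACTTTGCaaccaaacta
PSMC5 (chr17:63827654-63827682, plus strand): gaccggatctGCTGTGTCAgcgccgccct
PSMD3 (chr17:39980760-39980788, plus strand): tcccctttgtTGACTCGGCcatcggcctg
PSMD5 (chr9:120843038-120843066, minus strand): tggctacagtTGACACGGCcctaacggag
PSMD9 (chr12:121888631-121888659, plus strand): cgctactcctGCCGGGTCAccacaggcgc
PSMD9 (chr12:121888678-121888706, plus strand): cggcttccggTGACCCAGCtccgccctaa
PSMD12 (chr17:67366724-67366752, minus strand): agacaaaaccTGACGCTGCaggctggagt

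The CCAAT box, which the factor NF-Y binds, was more frequent, in 15 of the 29 genes (51.7%) against 37.0% of all genes with a promoter in the table. Among measured genes it was in 52.0% of subunit genes, against 41.3% of all and 42.4% of equally bright ones. PSMA5 and PSMB3 each held 2 boxes in the orientation of the gene, and these are printed as the clearest cases, with the box in capitals. The matches to TGACNNNGC and CCAAT did not overlap in the sites printed.
PSMA5 (chr1:109426517-109426541, minus strand): gcgcgttggcCCAATcacctaggcg
PSMA5 (chr1:109426488-109426512, minus strand): ctactaccagCCAATaggaagcagg
PSMB3 (chr17:38752676-38752700, plus strand): ggacgtgtgaCCAATagaaagccca
PSMB3 (chr17:38752718-38752740, plus strand): cgcctatcagCCAATgaagagac

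The alpha subunits form the outer rings of the core and hold the gate through which substrates enter. PSMA1 had a signal of 12110.2 in the siSHISA2 array and 11094 in the siCONTROL array (log2 ratio 0.13). PSMA3 read 11602 in siSHISA2 and 10285 in siCONTROL cells, the highest ratio of the core (0.17). Its other probe sets were dim, with a ratio of 0.0095 on one and -0.91 on the other, where the siSHISA2 signal of 15.5 was raised to the floor and the siCONTROL signal was 89.7. PSMA2 read 12242 in siSHISA2 and 12328 in siCONTROL cells (-0.010), the one alpha subunit with a value that was not higher in siSHISA2 cells. Between these lay PSMA4 with 12702 in siSHISA2 and 12001.5 in siCONTROL cells (0.082), whose promoter holds a TGACNNNGC match shown above. PSMA5 read 8759.9 in siSHISA2 and 8219 in siCONTROL cells (0.092). PSMA7 read 12949 in siSHISA2 and 12389.5 in siCONTROL cells (0.064). Of the 6 measured alpha genes 5 had ratios above 0, with a median of 0.087, and the ratio of PSMA3 alone was larger than 1 technical SD of 0.15. PSMA6 is read by 2 probe sets that are each assigned to more than 1 gene, so it has no value.

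**Figure D1:**
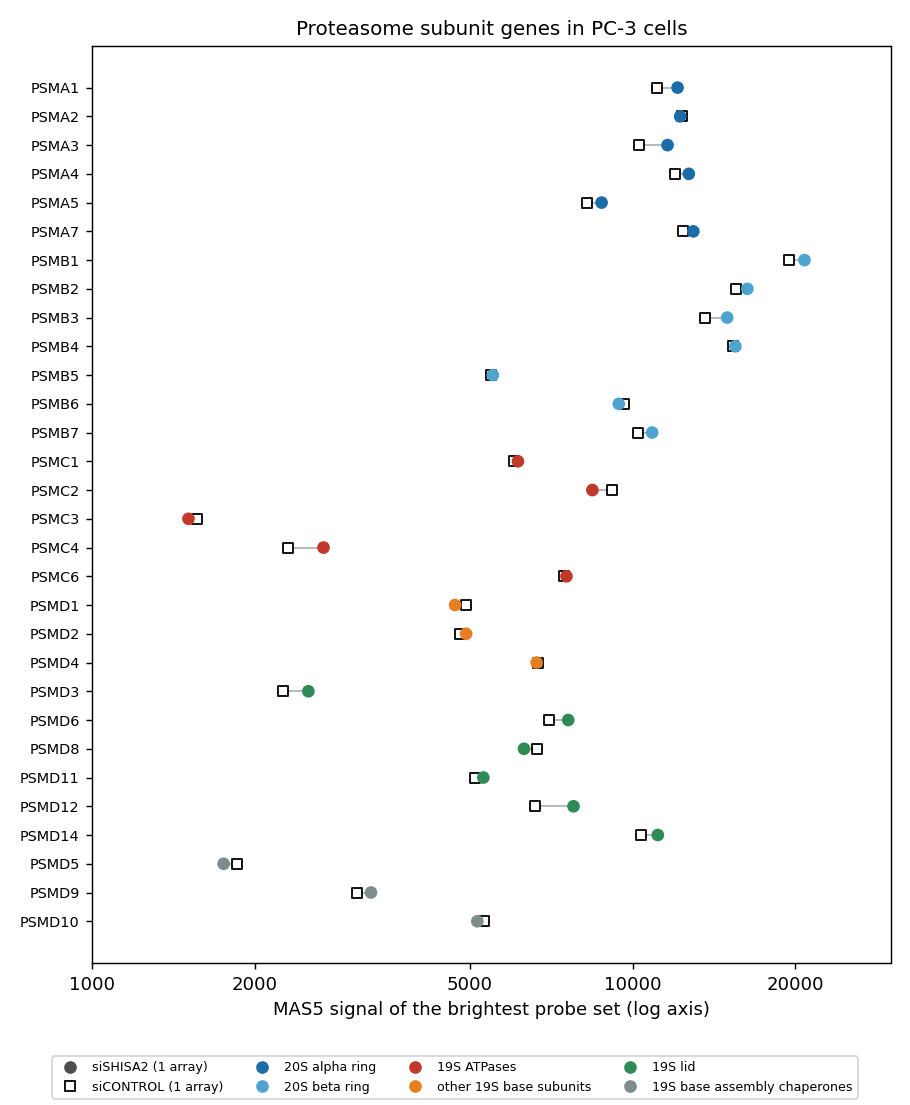
MAS5 signal (horizontal log axis) of the brightest probe set of the 30 measured proteasome subunit genes, with a filled circle for the siSHISA2 array, an open square for the siCONTROL array and colours for the subunit groups. The symbols of each gene lie close together, and the widest gaps are at PSMD12 (7772 in siSHISA2, 6589 in siCONTROL) and PSMC4 (2679 in siSHISA2, 2299.6 in siCONTROL). Signals of different genes come from different probes and do not rank the genes by abundance.

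Beta subunits form the inner rings, and PSMB5, PSMB6 and PSMB7 carry the chymotrypsin-like, caspase-like and trypsin-like active sites. PSMB5, the main target of bortezomib, read 5511 in the siSHISA2 array and 5459.6 in the siCONTROL array (log2 ratio 0.014). PSMB6 read 9425 in siSHISA2 and 9654 in siCONTROL cells (-0.035). PSMB7 read 10866 in siSHISA2 and 10236 in siCONTROL cells (0.086). The ratios of the 3 catalytic subunits thus spanned both sides of 0, with a median of 0.014. Among the structural beta subunits PSMB3 had the highest ratio, at 14960.4 in siSHISA2 and 13624 in siCONTROL cells (0.13). Its promoter holds the CCAAT boxes and the TGACNNNGC match shown above. PSMB1 read 20795 in siSHISA2 and 19427 in siCONTROL cells (0.098). PSMB2 read 16302 in siSHISA2 and 15556 in siCONTROL cells (0.068, others -0.14 and 0.091). PSMB4 read 15492 in siSHISA2 and 15355 in siCONTROL cells (0.013, others 0.085 and -0.21). Of the 7 beta genes 6 were above 0, with a median of 0.068, and all 7 lay within 1 technical SD of 0.

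The ATPases PSMC1 to PSMC6 form the ring that pulls substrates into the core. Their ratios spread more widely than those of the core and had a median near 0. PSMC4 had the highest ratio of the ATPases, at 2679 in the siSHISA2 array and 2299.6 in the siCONTROL array (0.22, or 1.16-fold), on a single probe set. PSMC2 had the lowest ratio of all the subunits, at 8423 in siSHISA2 and 9148 in siCONTROL cells (-0.12). Its dimmer probe sets had ratios of -0.27 and 0.13, on both sides of 0. PSMC3 read 1507 in siSHISA2 and 1559.8 in siCONTROL cells (-0.050). PSMC1 read 6134 in siSHISA2 and 6026 in siCONTROL cells (0.026). PSMC6 read 7541.5 in siSHISA2 and 7459.7 in siCONTROL cells (0.016). The median of the 5 was 0.016, with 3 above 0. PSMC5, whose promoter holds a TGACNNNGC match, had no probe set assigned to it in the annotation used here and has no value.

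The PSMD genes belong to the base, the lid and the assembly chaperones. Of the scaffold and receptor subunits of the base, PSMD1 (Rpn2), which docks the ubiquitin receptor ADRM1, read 4692 in siSHISA2 and 4924 in siCONTROL cells (-0.070). PSMD2 (Rpn1), which docks ubiquitin-like domains of shuttle proteins, read 4918 in siSHISA2 and 4791 in siCONTROL cells (0.038). The ubiquitin receptor PSMD4 (Rpn10) read 6641 in siSHISA2 and 6681 in siCONTROL cells (-0.0086), and its dimmer probe sets had ratios of 0.051 and 0.068. The 3 base genes had a median of -0.0086.

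In the lid, PSMD12 (Rpn5), a scaffold subunit, had the highest ratio of all 30 genes, with 7772 in the siSHISA2 array and 6589 in the siCONTROL array (0.24, or 1.18-fold). Its other probe set went the other way, at 2045 in siSHISA2 and 2193 in siCONTROL cells (-0.10). PSMD3 (Rpn3), another scaffold subunit, read 2511 in siSHISA2 and 2250.2 in siCONTROL cells (0.16) on its only probe set. The promoters of both hold a TGACNNNGC match shown above, as do those of PSMD5 (-0.081) and PSMD9 (0.088). PSMC4 (0.22) and PSMA3 (0.17) have none in the bases searched. A link between match and ratio was not tested. PSMD14 (Rpn11), the metalloprotease that cuts ubiquitin chains off the substrate, read 11131 in siSHISA2 and 10363 in siCONTROL cells (0.10). PSMD6 (Rpn7) read 7598 in siSHISA2 and 7009.6 in siCONTROL cells (0.12). PSMD11 (Rpn6), which clamps the lid to the core, had a ratio of 0.052 at 5292.5 in siSHISA2 and 5104 in siCONTROL cells, and -0.33 on its dimmer probe set (466 in siSHISA2, 587.8 in siCONTROL). PSMD8 (Rpn12), in yeast the last subunit to join the lid, read 6294 in siSHISA2 and 6652 in siCONTROL cells (-0.080), the one lid gene below 0 on its brightest probe set. The 6 measured lid genes of the rule had a median of 0.11 with 5 above 0. PSMD7 and PSMD13 were not assigned a probe set and have no value.

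PSMD5, PSMD9 and PSMD10 carry the names of subunits but are chaperones that hold the ATPases during assembly and leave before the particle is complete. PSMD5 read 1750.0 in siSHISA2 and 1851 in siCONTROL cells (-0.081). PSMD9 read 3279 in siSHISA2 and 3086 in siCONTROL cells (0.088), and -0.21 on a probe set with signals of 135.2 in siSHISA2 and 156.4 in siCONTROL cells. PSMD10, also called gankyrin, an oncoprotein in liver cancer that binds PSMC4, read 5159 in siSHISA2 and 5312 in siCONTROL cells (-0.042), and 0.067 on its other probe set. PSMC4 itself had a ratio of 0.22.

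**Figure D2:**
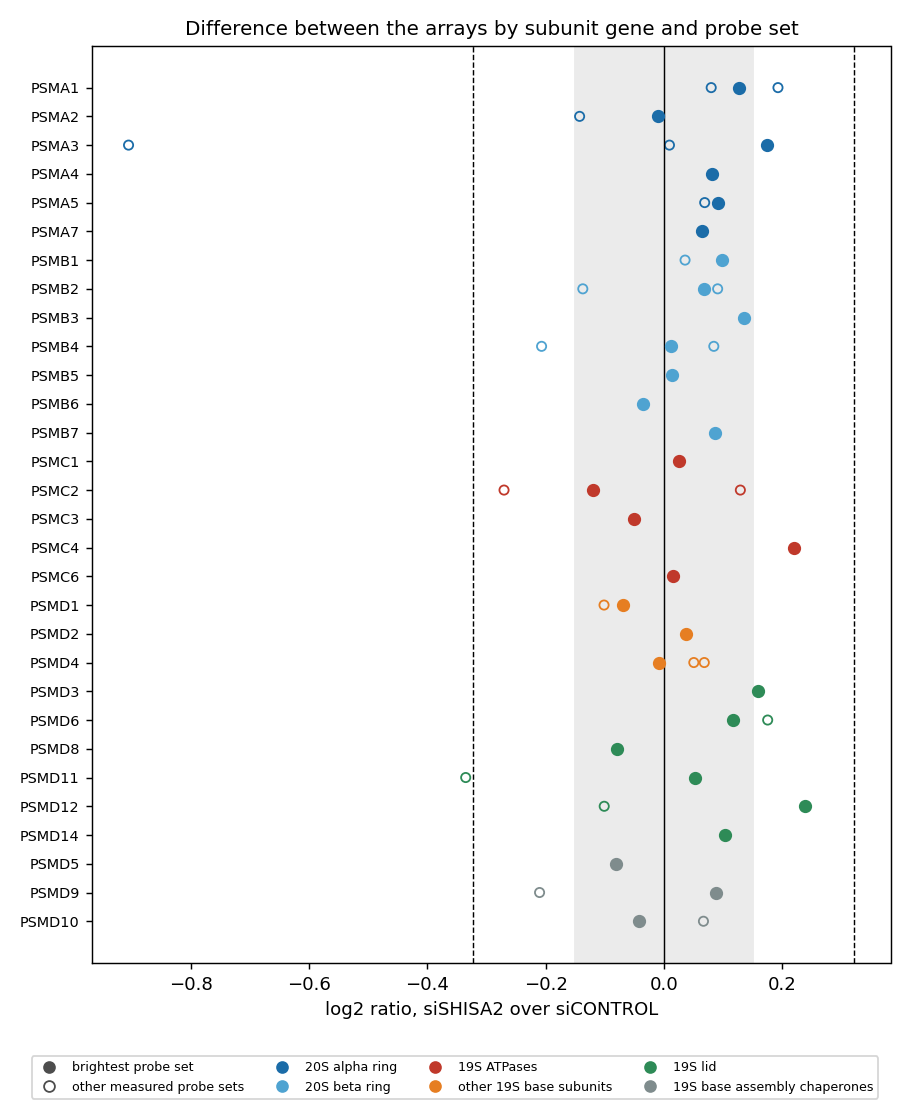
Log2 ratio of siSHISA2 over siCONTROL (horizontal axis) for each measured subunit gene, with a filled point for the brightest probe set, open points for its other measured probe sets, and colours for the subunit groups. The grey band is 1 technical SD (0.15) either side of 0 and the dashed lines mark the size threshold. The filled points of PSMA3, PSMC4, PSMD3 and PSMD12 lie outside the band and none reaches a dashed line.

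The subunits as a whole stayed within a narrow range. Their log2 ratios had an SD of 0.090 across genes, against 0.34 over all measured genes. Over the 4149 genes at least as bright as the dimmest subunit it was 0.19. Of the 30 subunits 20 lay in the brightest 25% of that set, where the SD over all 1038 genes was 0.16. The shares of equally bright genes given next are over the whole set and were not taken within that brighter range. None of the 30 passed the size threshold on its brightest probe set. Of all measured genes 13.1% passed it higher and 12.0% lower, and of the equally bright genes 8.27% passed it in either direction. At 1.1-fold, 4 of 30 were higher (PSMD12, PSMC4, PSMA3 and PSMD3) and 0 lower, against 18.4% and 20.1% of the equally bright genes. The ratios of these 4 genes also were the only ones larger than 1 technical SD of 0.15, a size that 34.9% of the equally bright genes exceeded. With the SD of 0.11 for equally bright probe sets, 8 of 30 did, against 47.0% of those genes. Genes of 1 pathway on 1 pair of arrays are not independent replicates, and these shares describe the 2 arrays only.

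More subunits had a ratio above 0 than below it: 21 of 30 (70.0%), against 52.2% of all measured genes and 51.5% of the equally bright ones. Brightness moved with this difference. Of the 30 subunits 20 lay in the brightest 25% of the equally bright genes, and there the median over all 1038 genes was 0.049, with 63.6% above 0. The 20 subunits of that range had a median of 0.075, with 15 above 0. After quantile normalization the count over all subunits was 18 of 30 and the median 0.019, against 50% of equally bright genes above 0. After removal of a loess trend the subunit values were 19 of 30 and 0.028, against 50.2% of equally bright genes. After median centring they were 18 of 30 and 0.0345, against 46% of equally bright genes.

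**Figure D3:**
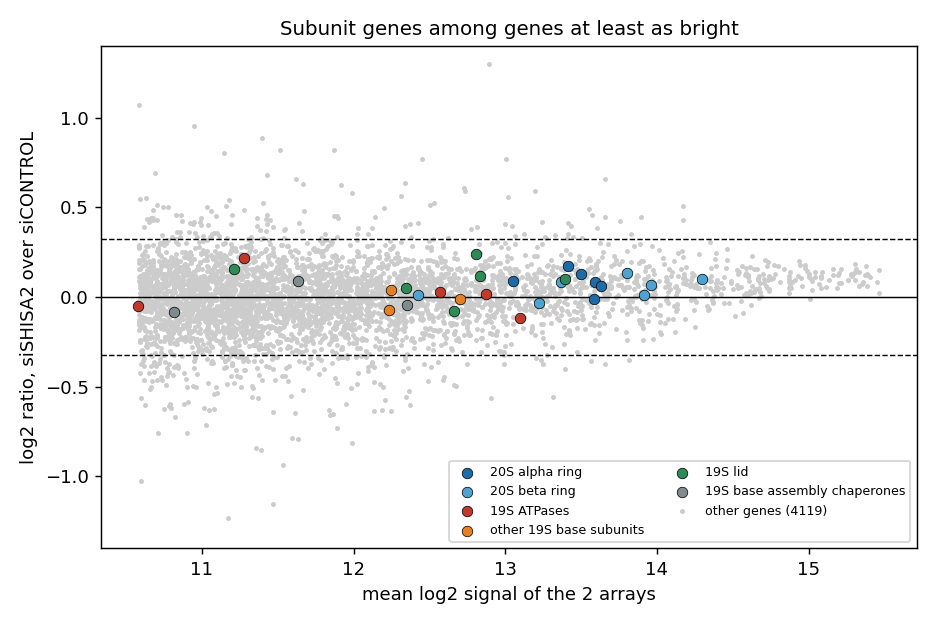
Log2 ratio of siSHISA2 over siCONTROL against the mean log2 signal of the 2 arrays for the 30 subunit genes (coloured by group) and the 4119 other genes at least as bright as the dimmest subunit (grey). Dashed lines mark the size threshold, and the subunits lie inside them while the grey cloud drifts above 0 at its bright end.

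The comparison of core, ATPases and lid gave medians of 0.082 for 13 core genes, 0.016 for 5 ATPases and 0.11 for 6 lid genes. The core exceeded the ATPases by 0.066 and was below the lid by 0.028 on the log2 scale, differences that were not tested. The ranges overlapped throughout: the core spanned -0.035 to 0.17, the ATPases -0.12 to 0.22 and the lid -0.080 to 0.24. Over the 14 measured 19S genes of the rule, without the assembly chaperones, the median was 0.032 with 9 above 0. In the core 11 of 13 genes were above 0. Of all measured genes 52.2% were above 0, and of the equally bright ones 51.5%. SEM1 and ADRM1, parts of the 19S particle with other symbols, are not among the 14. Core genes were also the brighter ones, with 12 of 13 in the brightest 25%. Within that range the core median was 0.084 (12 genes) and the 19S median 0.021 (8 genes). Above 0 were 10 of the 12 core genes and 5 of the 8 19S genes, against 63.6% of all genes of that range. After quantile normalization the core median was 0.022, with 9 of 13 above 0, the 19S median 0.031 and the ATPase median -0.0044. Of the equally bright genes 50% were above 0 in that setting. The core median stayed above the 19S median after median centring (0.058 against 0.0083) and after removal of a loess trend (0.038 against 0.023). So the order of core and 19S was not kept under every scaling, and quantile normalization was the one that reversed it.

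**Figure D4:**
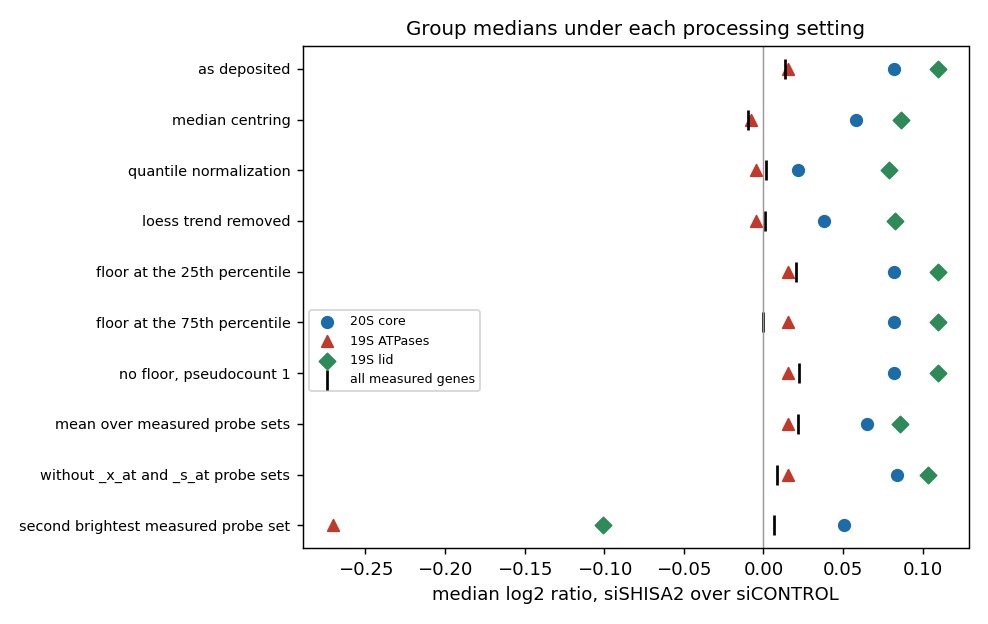
Median log2 ratio of siSHISA2 over siCONTROL (horizontal axis) for the 20S core, the 19S ATPases and the 19S lid under each processing setting (rows), with the median of all measured genes as a black tick. Lid and core lie right of the ATPases in every row, and with the second brightest probe sets the ATPase median (-0.27) rests on 1 gene and the lid median (-0.10) on 3.

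Different probe sets of the same gene limited how far single values can be read. Of the 30 genes 16 had more than 1 measured probe set. For 10 of them at least 2 probe sets had both signals above 387.3. Among these 10, all bright probe sets were above 0 for PSMA1, PSMA7 and PSMB1, all were below 0 for PSMA2 and PSMD1, and 5 genes (PSMB4, PSMD4, PSMD10, PSMD11 and PSMD12) had bright probe sets on both sides. PSMA1 was higher on each of 3 probe sets, with ratios of 0.080, 0.13 and 0.19. The brightest probe sets of 14 genes are of kinds that can share probes with other transcripts.

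The 6 measured genes with the TGACNNNGC element, PSMA4, PSMB3, PSMD3, PSMD5, PSMD9 and PSMD12, had a median ratio of 0.11 with 5 above 0, and the 19 measured genes with a promoter but without the element had a median of 0.026 with 13 above 0. Their ranges overlapped, from -0.081 to 0.24 with the element and from -0.12 to 0.22 without it. Of the genes with the element, PSMD12 and PSMD9 were below 0 on their other probe sets (-0.10 and -0.21). The rest of these genes had 1 measured probe set each. A link between element and ratio was not tested. Over the equally bright genes the medians were 0.015 for 587 genes with the element and 0.0009 for 2962 without it. Of these, 314 of 587 and 1490 of 2962 were above 0. For CCAAT boxes the subunit medians were 0.082 with a box (13 genes) and 0.045 without one (12 genes), but the counts above 0 ran the other way, 8 of 13 with a box and 10 of 12 without. Over the equally bright genes the medians were -0.0038 for 1504 genes with a box and 0.0078 for 2045 without. Above 0 were 739 of 1504 and 1065 of 2045.

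Of the genes around NRF1, 2 of 5 measured had ratios above 0, with a median of -0.010 and 1 of 5 past the size threshold. For this list and those below, the shares over all measured genes were 52.2% above 0 and 25.1% past the size threshold. Over the equally bright genes they were 51.5% and 8.27%. NFE2L1, the factor NRF1 itself, had ratios below 0 on all 3 probe sets and read 4375 in siSHISA2 and 4638 in siCONTROL cells on the brightest (-0.084, others -0.13 and -0.13). NFE2L2 (NRF2) read 9083.5 in siSHISA2 and 9147 in siCONTROL cells (-0.010). MAFG, a small Maf protein that pairs with both factors on the element, passed the size threshold, at 2495 in siSHISA2 and 1972 in siCONTROL cells (0.34), and had a ratio of 0.43 on its other probe set. NGLY1, the glycanase needed to activate NRF1, had a ratio of 0.11 on its brightest probe set and 0.62 on a dimmer one. VCP, the segregase that pulls NRF1 out of the endoplasmic reticulum, had a ratio of -0.045.

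Inducible subunits replace the catalytic ones in the immunoproteasome, which favours peptides for MHC class I. PSMB8 read 3814 in siSHISA2 and 3893.5 in siCONTROL cells (-0.030). PSMB9 read 4434 in siSHISA2 and 4216 in siCONTROL cells (0.073). PSMB10 read 3576 in siSHISA2 and 3389 in siCONTROL cells (0.077). None of the 3 passed the size threshold, and their median of 0.073 lay inside the range of the constitutive subunits they replace (-0.035 to 0.086). Among alternative caps and the inhibitor, PSME1 had a ratio of 0.11, PSME3 0.20 (other probe sets from -0.24 to 0.33), the inhibitor PSMF1 -0.039 (others from -0.74 to 0.092), and PSME4, a nuclear activator, -0.11 with its other probe sets at -0.32 and -0.26.

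Core assembly depends on POMP, a chaperone of core maturation, and on the PSMG chaperones, which build the alpha ring. POMP read 20122 in siSHISA2 and 16818 in siCONTROL cells, the highest ratio of its list (0.26, and 0.099 on its other probe set). PSMG2 read 7328.5 in siSHISA2 and 8211 in siCONTROL cells (-0.16), and its partner PSMG1 had a ratio of -0.077. PSMG3 and PSMG4, which act as the other pair, had ratios of 0.11 and 0.050. The list was thus split, with 3 of 5 above 0 and 0 of 5 past the size threshold.

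The parts of the 19S particle that carry other symbols or bind to it had ratios above 0 in 4 of 5 cases on their brightest probe sets, and SEM1 and ADRM1 had 1 measured probe set each. SEM1, the smallest lid subunit, read 7087 in siSHISA2 and 5987 in siCONTROL cells (0.24). ADRM1 (Rpn13), a ubiquitin receptor, read 2504 in siSHISA2 and 2174 in siCONTROL cells (0.20). The deubiquitinase UCHL5, which ADRM1 recruits, had a ratio of -0.043, with others of -0.11 and 0.11. For the other 2 genes the direction turned with the probe set. The deubiquitinase USP14 had a ratio of 0.067 and others of -0.18 and -0.059, and the ligase UBE3C had 0.099 and -0.18. None of these 5 passed the size threshold either, and the testis-specific alpha subunit PSMA8 was not above the floor.

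In ubiquitin supply and substrate delivery, 1 of 6 measured shuttle factors and 0 of 3 ubiquitin and activating-enzyme genes passed the size threshold, against 25.1% of all measured genes and 8.27% of equally bright ones. UBQLN4, a shuttle that brings ubiquitinated proteins to the 19S particle, read 1054 in siSHISA2 and 1339.8 in siCONTROL cells (-0.35), with 0.013 on its other probe set. The shuttle UBQLN1 had a ratio of -0.086, with others of 0.045 and 0.10, and UFD1, a cofactor of VCP, 0.13. The ubiquitin gene UBB had a ratio of 0.12, and the ubiquitin-activating enzyme UBA1 one of -0.086, with 0.13 on its other probe set. UBA6, the alternative activating enzyme, had -0.094, with others from -0.72 to 0.024.

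The COP9 signalosome and the translation factor eIF3 share the architecture of the lid. Neither had a gene past the size threshold on its brightest probe set. Dimmer probe sets passed it for COPS2 (-0.35), COPS7B (-0.40), COPS8 (-0.57), EIF3B (0.84), EIF3F (-0.67) and EIF3H. For COP9, which removes NEDD8 from cullin ligases, 3 of 9 genes were above 0 with a median of -0.079, led by COPS7A (0.23), COPS6 (-0.13, and 0.21 on its other probe set) and GPS1 (-0.13). For eIF3 8 of 12 were above 0 with a median of 0.084, led by EIF3M (0.24), EIF3A (-0.18, others -0.30 and 0.015) and EIF3H (0.17, and -0.86 on a dimmer probe set). The ranges of both lists overlapped that of the proteasome lid, whose median was 0.11.

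**Figure D5:**
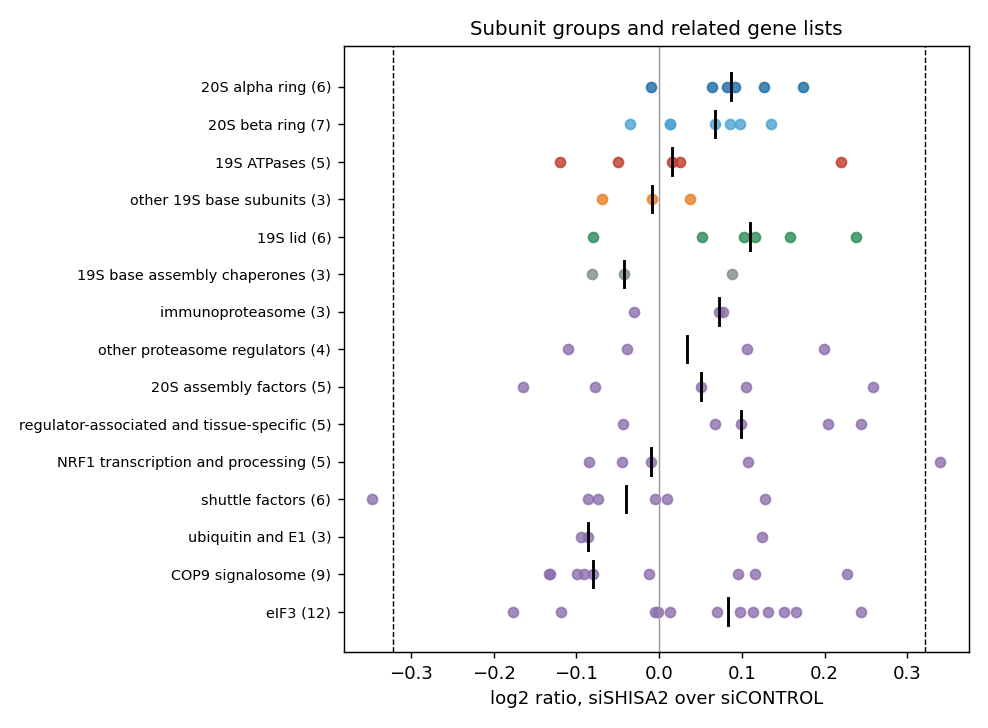
Log2 ratio of siSHISA2 over siCONTROL (horizontal axis) for each measured gene of the subunit groups (top 6 rows) and of related gene lists (lower rows), with the number of measured genes in brackets, black ticks at the medians and dashed lines at the size threshold. MAFG (0.34) and UBQLN4 (-0.35) are the points outside the dashed lines.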

How the data were processed

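The authors deposited linear signal intensities per probe set, made with MAS5 of unstated version, per the submitters' processing notes. The mean signal after trimming 2% at each end was 500.1 in both arrays, so no scaling was added. Signals were raised to a floor of 47.9, the median of all signals other than the 62 control probe sets. A probe set with its higher signal above the floor counted as measured. Only probe sets assigned to 1 gene by the platform annotation were used (41091 of 54675). A gene was represented by its brightest measured probe set (by mean log2 signal), and the value is the log2 ratio of siSHISA2 over siCONTROL. Every gene list and subunit group, the 1.25-fold size and the motifs were chosen with earlier results of these data known. All members were named, every measured gene of the immunoproteasome, regulator, assembly, associated and NRF1 lists, and up to 3 with the largest ratios of the other lists. The comparison with equally bright genes was added after the data were seen. Alternatives were median centring, quantile normalization, a loess trend (span 0.3), floors of 11.3 and 387.3, a pseudocount of 1, other choices of probe set and other fold sizes. Promoter sequences are from RefSeq (GRCh38.p14), and genes with several starts counted once. Symbols were compared through gene identifiers with RefSeq, and 0 changed. The procedure was tested on simulated data with shifts of 1 log2 unit up or down. That test did not cover shifts as small as the subunit ratios. Python 3.11.15, pandas 2.3.3 and statsmodels 0.14.6 were used. Precision is limited by the 2 arrays.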

Additional observations from a re-analysis of the deposited data

How the results depend on the processing

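Under the scalings and floors tried, the median ranged from 0.022 to 0.082 for the core, from 0.079 to 0.11 for the lid and from 0.019 to 0.058 for all subunits. For the ATPases it ranged from -0.0078 to 0.016 and was below 0 after median centring, quantile normalization and removal of a loess trend. With the second brightest measured probe set, the ATPase median was -0.27 (1 gene) and the lid median -0.10 (3 genes). The counts above 0 were 8 of 16 subunits, 5 of 8 core genes and 2 of 6 genes of the 19S particle. In the same setting 50.9% of the 6428 genes with a second measured probe set were above 0, and 50.8% of equally bright ones. That setting has fewer and dimmer probe sets. It also gave 2 subunits past the size threshold on the lower side, PSMA3 and PSMD11, and leaving out probe sets that can share probes gave 1, PSMD11. At 1.1-fold, 4 subunits were higher. The ratio of UBQLN4 was 0.013 on its second probe set, against -0.35 on the first, and the cause was not tested. The share of genes past the size threshold was 25.1% over all measured genes and 11.7% with both signals above 387.3. Over genes at least as bright as the dimmest subunit it was 8.27%. The technical SD was 0.26 over all probe sets above the floor. No paired analysis was possible because each group holds 1 array.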
